A study of Mus musculus with 27 samples.

Results

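Ythdf2 knockout round spermatids were compared with wild-type round spermatids in 3 RNA libraries out of the 27 in the whole series. They were chosen by their labels: 2 libraries from Ythdf2-/- males and 1 from a Ythdf2+/+ male or males, all on the strain background given as CB6F1 X C57BL/6. Germ cells had been sorted by flow cytometry, and total RNA was depleted of ribosomal RNA with a Ribo-Zero kit before library preparation with ScriptSeq V2. The labels give neither the age of the males, nor the part of Ythdf2 that was deleted, nor whether the knockout libraries came from separate animals, so p-values measure the spread between these libraries, which may be technical. The comparison asks what loss of this reader does to RNA levels in haploid male germ cells. With a single wild-type library the spread was estimated from the 2 knockout libraries, and the wild-type library was assumed to vary like them.

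Ythdf2 is a cytoplasmic protein that binds m6A (N6-methyladenosine, a methylated base found inside many mRNAs) and recruits the CCR4-NOT deadenylase to shorten the life of marked transcripts. The writer of the mark is a complex built around Mettl3 and Mettl14. Round spermatids are the haploid cells that follow the second meiotic division. They build the acrosome and the flagellum, store many mRNAs for later translation, and express transition proteins and protamines, which go on to replace histones in the condensing sperm nucleus. The X and Y chromosomes are silenced during meiosis and stay partly repressed afterwards, with a set of X-linked genes, many of them in several copies, switched on in spermatids.

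Assigned counts were 18843689 and 22120274 in knockout libraries 1 and 2 and 32759740 in the wild-type library. Levels are CPM, the counts of a library brought to a common total, after scaling by the trimmed mean of M values (TMM). Changes are knockout minus wild type on the log2 scale, ± a standard error worked back from the change and the F statistic of its test. The word called marks a gene whose adjusted p (edgeR's quasi-likelihood test, Benjamini-Hochberg over the 16031 genes tested) was under 0.05. Log2 levels correlated across genes at 0.975 between the knockout libraries, and at 0.968 and 0.963 between each of them and wild type. The cells matched their label by the 22 round spermatid markers, among them Tnp1, Tnp2, Prm1 and Prm2. These summed to 18898 and 15269 CPM in the knockouts and 12549.8 CPM in wild type. The 39 meiotic prophase genes in the table summed to 5247, 5118 and 6012 CPM in the same order. Of the somatic lists, Sertoli cell genes summed to 146, 132 and 140.4 CPM, Leydig cell genes to 4.86, 4.16 and 3.9 CPM, and genes of peritubular, endothelial and blood cells to 37.9, 49.7 and 25 CPM. No gene of the 3 somatic lists was called by edgeR or DESeq2; at an unadjusted p under 0.05, 2 Sertoli cell genes were higher and 1 lower, 0 Leydig cell genes differed and 1 gene of the third list was higher. Fitted medians of these lists were above 0: 0.46 for Sertoli cells (16 of 21 genes above 0, library medians 0.61 and -0.18), 0.43 for Leydig cells, and 1.06 for the third list (12 of 15 above 0, library medians 0.35 and 0.64). Of the defining Sertoli genes, Sox9 had 7 and 16 counts in the knockouts and 0 in wild type, Wt1 50 and 15 against 25, and Rhox5 18 and 12 against 14. The part of these cells in the results below was not tested.

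Ythdf2 itself (chr4:132184912-132212303, mm10) stood at 29.9 and 27.9 CPM in the knockout libraries and 29.2 CPM in wild type. The wild-type value lies between the knockout values, and the fitted change was -0.02 ± 0.33 (adjusted p = 0.992). Since the labels do not say which part of the gene was removed, a count over the whole gene does not check the genotype. In Ythdf2-/- embryonic stem cells of the same series Ythdf2 stood at 14.3 ± 5.39 CPM against 25.5 ± 0.821 CPM in wild type (SD, n = 2 each; edgeR adjusted p = 0.216). In Ythdf2-/- oocytes past the germinal vesicle stage it stood at 177 ± 29.4 CPM (n = 2) against 98.6 ± 30.5 CPM in heterozygotes (n = 3; edgeR adjusted p = 0.848). Neither difference was called, and they have opposite signs. The other cytoplasmic readers were close to wild type in the spermatids. Ythdf1 read 4.92 and 4.51 against 5.47 CPM, and Ythdf3 read 19.4 and 21.5 against 19.9 CPM. Neither Ythdf1 (-0.21 ± 0.52) nor Ythdf3 (0.04 ± 0.36) was called.

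In all, 785 genes were called, 4.9% of those tested. Of these, 361 were higher in the knockout (2.25%) and 424 lower (2.64%), and in each of the 785 both knockout libraries lay on the same side of wild type. The test itself favours this, since its spread came from the knockout libraries alone. Over all tested genes both knockout libraries lay above wild type for 38.8% and below it for 36.1%. Scaling by total counts in place of TMM gave 577 higher and 337 lower, moving the share of higher calls from 46.0% to 63.1%. It also shifted the log2 change of the median gene by 0.1. By DESeq2, 399 genes were called. Of 77 called genes that the naming rule or the X-linked choice below picked and that have a DESeq2 adjusted p, 23 were not called by DESeq2. They include Tnp1, H1fnt, Gopc, Rsph1, Ift140, Cox6b2, Pfkp, Rpl10l, Piwil1, Cnot4, Hfm1, Hsp90b1, Calr3, Ccng1, Ddx58, Stat2, Suv39h2, Pdk3 and Psmd7 among the genes described below. A filter of 5 CPM also ended the calls of Mybl1, Edc4 and Uhrf1, and limma-voom those of Nmi and Fas. The 2.25% and 2.64% are the backgrounds over all levels for every count of members called higher or lower below. The shares called depended on level. Of autosomal genes with a mean log2 CPM under 2, 1.12% were called higher and 0.402% lower. Of autosomal genes at 5 or more, 1.79% were called higher and 5.52% lower. The gene lists were not matched for level, so 2.64% is a low background for lower calls in a well-expressed list. Over all tested genes the median change was 0.08. By a description without a test, 584 genes (3.64%) were at least 2-fold above wild type in both knockout libraries and 346 (2.16%) at least 2-fold below in both, on log2(CPM + 0.5). The knockout libraries themselves differed by at least 2-fold for 1587 genes (9.9%), most of them weakly expressed. Against wild type, the like counts were 1312 above and 775 below in knockout 1, and 1498 and 1048 in knockout 2. Of the 8119 genes whose mean log2 CPM was 3 or more, 85 and 83 differed so in either direction between the knockout libraries. At that level 313 were above wild type and 247 below in knockout 1, and 350 and 526 in knockout 2.

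**Figure D1:**
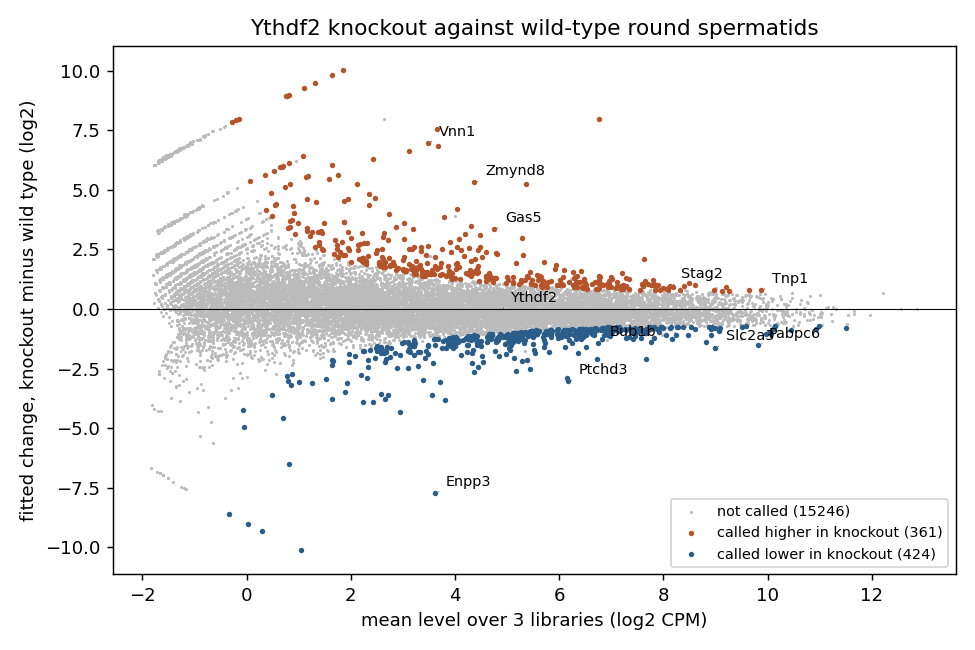
Each point is a tested gene, with its mean level over the 3 libraries (log2 CPM) on the horizontal axis and the fitted change, knockout minus wild type (log2), on the vertical axis. The 361 genes called higher and the 424 called lower are coloured, Ythdf2 lies near 0, and Enpp3 is the labelled gene farthest below.

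The sex chromosomes stood apart from the autosomes. Of 577 X-linked genes tested, 78 were called higher (13.5%) and 2 lower (0.347%), whereas 278 of 15275 autosomal genes were called higher (1.82%) and 420 lower (2.75%). The median change was 0.82 for X-linked and 0.05 for autosomal genes. The 21 tested Y-linked genes, taken up below, had 14.3% called higher and a median of 0.95. Single autosomes ranged from 0.671% to 3.99% called higher, with medians from -0.05 to 0.18. Each knockout library taken alone showed the X-linked excess: the median difference from wild type on log2(CPM + 0.5) was 0.71 in knockout 1 and 0.53 in knockout 2, beside -0.03 and 0.04 for autosomes. Both differences are taken from the same wild-type library, so they are not independent of each other. Both knockout libraries lay above wild type for 404 of the 577 genes (70.0%), against 38.8% of all genes with both above and 36.1% with both below. X-linked genes also differed between the knockout libraries, by a median of 0.21 in favour of knockout 1, while autosomal genes differed by -0.01.

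**Figure D2:**
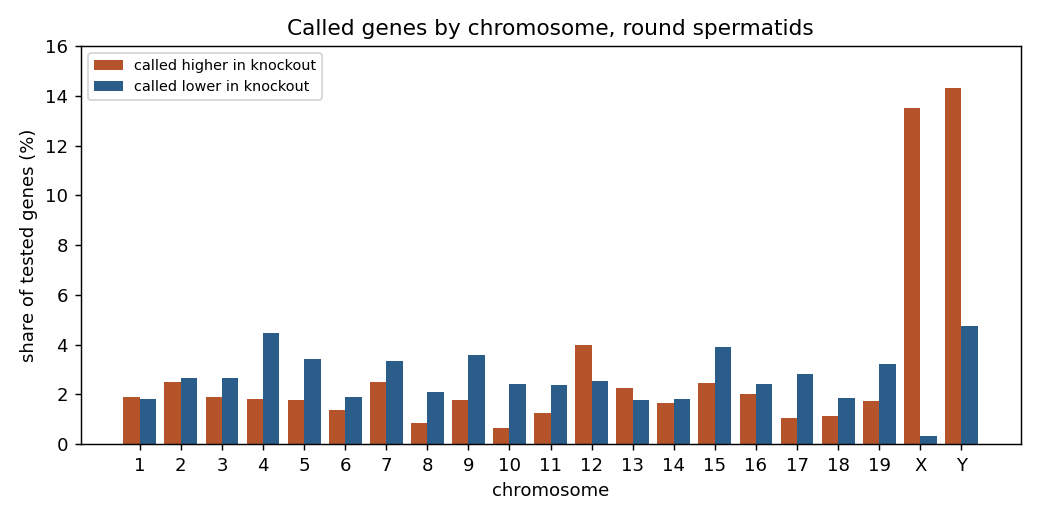
Bars give the share of tested genes on each chromosome (%) that were called higher or lower in knockout round spermatids. The bars for genes called higher reach 13.5% on the X and 14.3% on the Y, where 21 genes were tested, and no autosome passes 3.99%.

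The share called was highest among well-expressed X-linked genes. Of the 102 X-linked genes with a mean log2 CPM of 5 or more, 47 were called higher (46.1%) and 0 lower, and the median change was 0.87. The 4586 autosomal genes of that level had 82 called higher (1.79%), 253 called lower (5.52%) and a median of -0.11. Between 2 and 5 log2 CPM, 24 of 186 X-linked genes were called higher and 1 lower, with a median of 0.71 against -0.02 for autosomes. Below 2 log2 CPM the medians were 0.87 and 0.42, so there the autosomal genes also leaned upward. Calls were spread along the chromosome: in windows of 30 Mb the share called higher ran from 9.89% to 16.7% and the median change from 0.71 to 0.94. Among protein-coding genes alone, 71 of 529 on the X were called higher and 2 lower. For the well-expressed X-linked genes, an unadjusted p under 0.05 was reached by 80 in the higher direction and 0 in the lower, and DESeq2 called 32 higher and 0 lower.

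**Figure D3:**
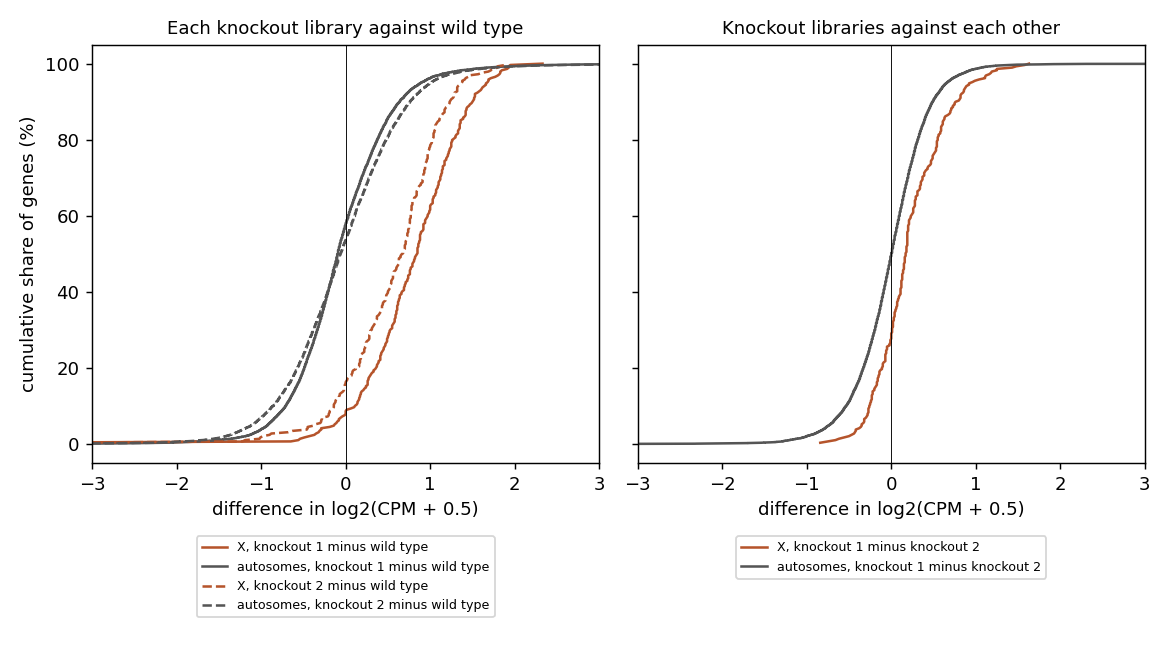
Cumulative shares of genes (%) of mean log2 CPM 2 or more, against the difference in log2(CPM + 0.5), for 288 X-linked and 9554 autosomal genes. At left the X curves of both knockout libraries lie to the right of the autosomal curves (medians 0.84 and 0.67 against -0.09 and -0.06), and at right the knockout libraries are set against each other (medians 0.17 and 0.0).

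The X-linked genes named next were chosen after their values were seen, from the 10 genes called higher that had the highest level and a standard symbol. Stag2, a subunit of the cohesin ring that holds sister chromatids together, read 339 and 331 CPM in the knockouts and 169.8 CPM in wild type (0.98 ± 0.25, adjusted p = 0.00759). Pdk3, a kinase that inhibits pyruvate dehydrogenase, read 325 and 297 against 176 CPM (0.82 ± 0.25, adjusted p = 0.0327). In both genes the knockout values lie close together and well above the wild-type value. Arhgef6, an exchange factor for small GTPases, read 226 and 163 against 78.6 CPM, a change of 1.31 ± 0.27. Ppef1, a calcium-binding protein phosphatase, read 159 in each knockout library against 62.2 CPM (1.36 ± 0.27, adjusted p = 0.000213). Cstf2, the cleavage stimulation factor that binds RNA downstream of poly(A) sites, read 177 and 171 against 88.4 CPM. Apart from Arhgef6, the knockout libraries differed little in these genes compared with their distance from wild type.

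Spermatid genes of the X chromosome differed in how far they moved. In a list of 31 X-linked and multicopy spermatid genes, 23 were in the table, 21 were tested, 6 rose and 0 fell, with a median of 0.72 (14 higher and 0 lower at an unadjusted p under 0.05, 4 and 0 by DESeq2). Their summed level was 3490.5 and 2769.5 CPM in the knockouts and 1847 CPM in wild type. Actrt1, an actin-related protein of the sperm head skeleton, read 36.5 and 32.0 against 14.0 CPM (1.29 ± 0.36, adjusted p = 0.0154). Tex13a, a testis-expressed gene, read 103 and 90.8 against 47.1 CPM. Asb9, the substrate-binding part of a ubiquitin ligase, read 114 and 104 against 54.1 CPM (1.01 ± 0.27, adjusted p = 0.0121). Families of X-linked genes, taken by symbol, ranged from Cldn34, claudin-like genes of which 4 of 8 rose (2 by DESeq2) with a median of 1.29, to Ssx, of which edgeR and DESeq2 called 0 of 8 (0 at an unadjusted p under 0.05) with a median of 0.12 (0.34 and -0.2 in the knockout libraries). Of 12 Mage genes 1 rose, with a median of 0.65, and of 7 Rhox homeobox genes edgeR and DESeq2 called 0 (1 higher at an unadjusted p under 0.05), with a median of 0.54. Akap4, the main structural protein of the fibrous sheath, read 1756 and 1464 against 1016 CPM but was not called (0.66 ± 0.24, adjusted p = 0.0858). The exceptions called lower, Gm1993 (0.582 and 1.43 against 20.7 CPM) and Gm5072 (0.0 and 0.217 against 2.24 CPM), are predicted genes. On the Y chromosome 3 of 21 tested genes were called higher and 1 lower, with a median of 0.95. One of the risers was Zfy2, a zinc finger transcription factor (42.8 and 36.6 against 15.5 CPM, 1.35 ± 0.35, adjusted p = 0.00779); Y-linked genes were named after their values were seen, and many have near-identical copies.

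The Cypt genes, which encode small basic cysteine-rich proteins of the spermatid nucleus, make a small family, mostly X-linked, with similar promoters. Sequence from the 120 bases before the start of each gene is shown for the 4 members tested on the X, because each lay above wild type in both knockout libraries. Sequences are from RefSeq (GRCm38.p6), 5′ to 3′ on the gene's strand, and capitals mark the longest run that the 4 windows of 250 bases before the start share.
Cypt2 (chrX:105499652-105499771, plus strand): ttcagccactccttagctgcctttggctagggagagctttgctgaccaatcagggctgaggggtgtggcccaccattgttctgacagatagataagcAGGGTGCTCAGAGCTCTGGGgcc
Cypt3 (chrX:153558473-153558592, plus strand): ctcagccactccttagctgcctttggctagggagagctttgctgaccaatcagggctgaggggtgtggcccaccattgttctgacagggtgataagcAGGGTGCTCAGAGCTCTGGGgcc
Cypt15 (chrX:39346146-39346265, plus strand): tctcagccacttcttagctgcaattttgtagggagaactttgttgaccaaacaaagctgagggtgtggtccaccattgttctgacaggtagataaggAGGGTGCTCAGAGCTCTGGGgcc
Cypt14 (chrX:39863605-39863724, minus strand): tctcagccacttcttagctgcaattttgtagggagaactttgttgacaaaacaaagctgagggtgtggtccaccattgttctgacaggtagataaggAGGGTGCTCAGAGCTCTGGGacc

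The shared run AGGGTGCTCAGAGCTCTGGG, searched on both strands, was found in 5 of 32851 promoters (0.0152%), those of Cypt2, Cypt3, Cypt12, Cypt14 and Cypt15. Over these 120 bases Cypt2 and Cypt3 were 96.7% identical, Cypt15 and Cypt14 98.3%, and Cypt2 and Cypt15 87.7%. Cypt2 had the highest level of the X-linked members, 227 and 173 CPM in the knockouts against 84.6 CPM in wild type, and rose by 1.24 ± 0.26 (adjusted p = 0.000643). Cypt3 read 88.0 and 60.4 against 36.6 CPM, and Cypt15 read 53.2 and 26.5 against 17.0 CPM. Each knockout library lay above wild type for these genes, and knockout 1 was the higher of the pair. Cypt14 read 6.56 and 5.68 against 1.76 CPM and was not called (1.8 ± 0.59, adjusted p = 0.0571). Of these 4 genes DESeq2 called 1. Cypt12, the carrier of the run on chromosome 3, had the highest level of the 5, 516 and 582 against 329.9 CPM, and was not called (0.73 ± 0.24, adjusted p = 0.0588). Reads from such similar genes can be assigned to the wrong copy, so the value of a single Cypt gene is uncertain.

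Few genes of the replacement of histones passed the test. Of 5 transition protein and protamine genes 1 rose and 0 fell (3 and 0 at an unadjusted p under 0.05, 0 by DESeq2), with a fitted median of 0.56 that was 0.73 in knockout 1 and 0.21 in knockout 2. Tnp1, a transition protein gene, read 1052 and 1117 CPM in the knockouts against 633 CPM in wild type (0.78 ± 0.24, adjusted p = 0.0372). Tnp2 read 2437 and 1589 against 1370 CPM (0.56 ± 0.24, adjusted p = 0.186). Prm1, which encodes the first protamine, read 6617 and 4205 against 3402 CPM (0.67 ± 0.24, adjusted p = 0.0915). Prm2 differed more between the knockout libraries, 2327 and 1036 CPM, than either did from the 1660 CPM of wild type, and Prm3 read 163 and 129 against 123 CPM. Tnp1 is thus the single member of the 5 whose difference passed the test, and the levels of Tnp2, Prm1 and Prm3 were higher than wild type in both knockout libraries without passing it.

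The promoters of Tnp1 and Prm1 are shown because these genes are textbook targets of CREM, an activator of haploid genes that binds cyclic AMP response elements. Capitals mark matches to TGANNTCA, a palindrome with the outer bases of such elements, in RefSeq sequence of GRCm38.p6 from the 100 bases before the start.
Tnp1 (chr1:73015900-73015999, minus strand): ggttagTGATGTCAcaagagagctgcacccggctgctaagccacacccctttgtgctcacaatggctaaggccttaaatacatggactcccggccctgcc
Prm1 (chr16:10796824-10796923, minus strand): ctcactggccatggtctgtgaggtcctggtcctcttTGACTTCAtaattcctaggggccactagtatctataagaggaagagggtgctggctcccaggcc
The match begins 94 bases before the start in Tnp1 and 64 bases before it in Prm1. The motif occurs, on either strand, in 3919 of 32851 promoters of 250 bases (11.9%), so a match is a description of these windows.

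Of 13 tested spermatid histone variant genes 2 rose and 0 fell, with a median of 0.42. H1fnt, a linker histone of elongating spermatids, read 976 and 890.1 CPM against 539 CPM (0.79 ± 0.24, adjusted p = 0.0335). Hils1, another spermatid linker histone, read 285 and 322 against 162 CPM (0.9 ± 0.25, adjusted p = 0.0163), and it lies inside Sgca on the opposite strand. In both genes the knockout values lie above the wild-type value with little distance between them. H2afb1, an X-linked short histone H2A variant, read 48.4 and 43.1 against 22.8 CPM (1.01 ± 0.33, adjusted p = 0.0507). Median changes of this list differed between the libraries, 0.45 in knockout 1 and -0.06 in knockout 2.

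**Figure D4:**
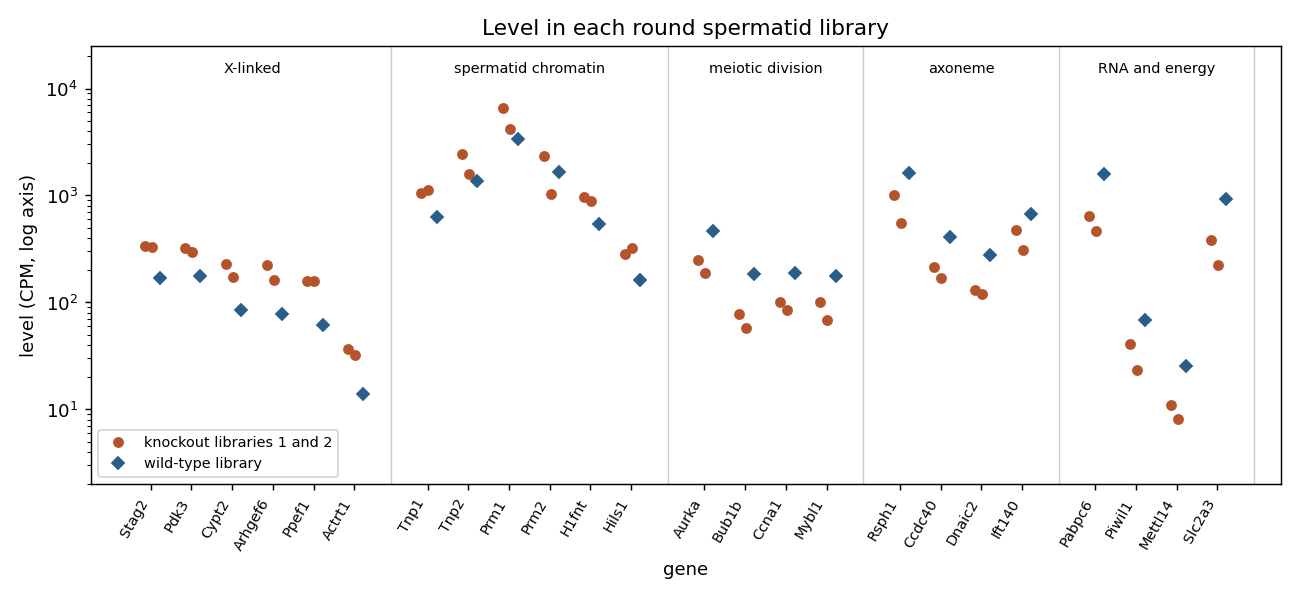
Levels (CPM, log axis) of 24 genes in each of the 3 libraries, with circles for the knockout libraries and diamonds for wild type. The X-linked genes shown lie above wild type in both knockout libraries, and the meiotic division and axoneme genes shown lie below it.

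Genes of the meiotic divisions were lower in the knockout. Of 27 such genes, all tested, 8 fell and 0 rose, with a median of -0.62 beside 0.08 over all tested genes. At an unadjusted p under 0.05, 15 were lower and 1 higher, and DESeq2 called 5 lower. Well-expressed autosomal genes, with a mean log2 CPM of 5 or more, had a median of -0.11 and 5.52% called lower. Whether the division list differed from genes of its own level was not tested. Bub1b, a kinase of the spindle checkpoint, read 78.8 and 58.3 CPM in the knockouts against 185 CPM in wild type (-1.43 ± 0.25, adjusted p = 1.46e-05). Aurka, the kinase that matures spindle poles, read 251 and 189.6 against 469 CPM (-1.09 ± 0.23, adjusted p = 0.00086). Ccna1, the germ line cyclin needed for entry into the first division, read 101 and 85.5 against 187 CPM. Mybl1, the transcription factor that switches on genes of pachytene spermatocytes, read 100.3 and 68.3 against 176 CPM (-1.07 ± 0.25, adjusted p = 0.00307). In each of these genes knockout 2 was the lower library, and neither knockout value overlapped wild type. The other 4 that fell, outside the rule for named genes and chosen after their values were seen, are kinases of the divisions and their partners: Plk1 by 1.0, Cdc20 by 0.93, Ttk by 0.84 and Incenp by 1.12.

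The other 19 genes of that list were not called. Among them Ccnb1, which encodes cyclin B1, stood at 182 and 171 against 202 CPM, and Cdk1, its kinase partner, at 17.1 and 16.2 against 23.5 CPM; both were chosen after their values were seen. The median of the meiotic division list was -0.44 in knockout 1 and -0.92 in knockout 2. Genes of meiotic prophase, which act earlier, gave 1 fall and 0 rises among 38 tested, with a median of -0.12. Hfm1, a helicase of crossover formation, was that gene (8.78 and 19.2 against 37 CPM, -1.4 ± 0.36, adjusted p = 0.00995). Sycp3, a core protein of the synaptonemal complex, read 87.8 and 68.6 against 127 CPM (-0.7 ± 0.26, adjusted p = 0.0927). Of 16 tested spermatogonial genes 2 fell, Dmrtb1 (298 and 216 against 547 CPM, -1.09 ± 0.23) and the proliferation marker Mki67 (15.9 and 19.5 against 46.7 CPM, -1.4 ± 0.33), but 11 of the 16 lay above 0, with a fitted median of 0.56 (0.39 and 0.27 in the knockout libraries). Gfra1, a receptor subunit of spermatogonial stem cells, read 16.3 and 23 against 8.53 CPM (1.2 ± 0.4, adjusted p = 0.0616). Summed levels of the meiotic division list were 4271, 3332 and 5583 CPM in knockout 1, knockout 2 and wild type, while the round spermatid markers given above summed higher in both knockouts than in wild type. Those markers include Tnp1, Tnp2, Prm1, Prm2, H1fnt and Hils1, so their sum is not separate from the chromatin results. The list of transition protein and protamine genes, which also holds Prm3, summed to 12593, 8074 and 7186 CPM in the same order. In bulk samples fewer cells of a type and less RNA per cell cannot be told apart. The part of cell makeup in the X-linked, chromatin and division results was not tested.

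**Figure D5:**
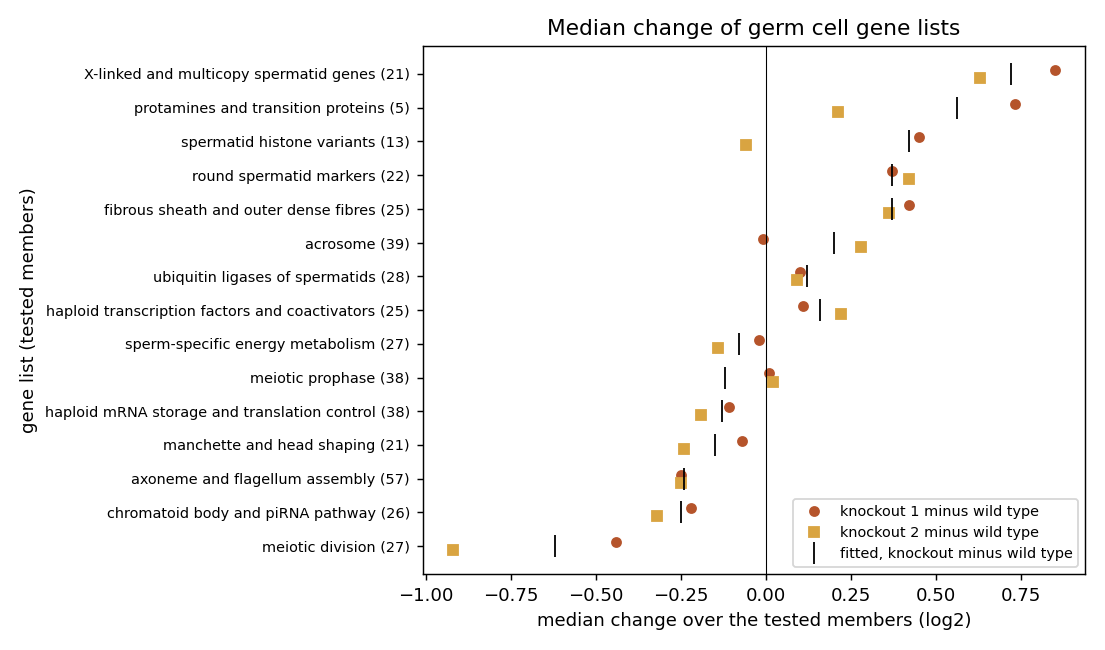
Median changes (log2) over the tested members of 15 germ cell gene lists, for each knockout library against wild type on log2(CPM + 0.5) and for the fit to all 3 libraries. Meiotic division genes lie lowest (fitted median -0.62), and the X-linked and multicopy spermatid genes highest (0.72).

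Part of the axoneme genes of the flagellum were lower. Of 57 tested genes of the axoneme and its assembly, 5 fell and 0 rose (13 and 1 at an unadjusted p under 0.05, 2 and 0 by DESeq2), with a median of -0.24 that was -0.25 in each knockout library. Autosomal genes with a mean log2 CPM of 5 or more had 5.52% called lower and a median of -0.11. Whether the axoneme list differed from genes of its own level was not tested. Rsph1, a radial spoke head protein, read 1009.6 and 556 CPM against 1633 CPM (-1.06 ± 0.26, adjusted p = 0.00956). Ccdc40, part of the ruler that sets the spacing of axonemal repeats, read 216 and 171 against 405 CPM (-1.07 ± 0.24, adjusted p = 0.00121). Dnaic2, an intermediate chain of the outer dynein arm, read 130.3 and 120.3 against 276 CPM (-1.14 ± 0.24, adjusted p = 0.000497). Ift140, a carrier of retrograde intraflagellar transport, fell by 0.77, and Dnah8, a dynein heavy chain named after its values were seen, fell by 0.72. Of 25 genes of the fibrous sheath and outer dense fibres, 1 rose and 0 fell, with a median of 0.37. It was Rnf133, a testis ubiquitin ligase on that list (398 and 400.4 against 205 CPM, 0.96 ± 0.25, adjusted p = 0.00844). Rnf133 is also on the list of spermatid ubiquitin ligases, and the other 24 genes of the sheath and fibre list were not called.

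Acrosome genes showed little shared change: 1 of 39 fell, 0 rose and the median was 0.2. The gene was Gopc, a Golgi protein needed to form the acrosome (14.2 and 7.07 against 24.4 CPM, -1.2 ± 0.38, adjusted p = 0.0452). Acr, which encodes the acrosomal protease acrosin, read 74.5 and 84.7 against 136 CPM (-0.78 ± 0.25, adjusted p = 0.0526). None of 21 genes of the manchette and head shaping was called (1 higher and 2 lower at an unadjusted p under 0.05, 0 by DESeq2), with a median of -0.15.

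Among 27 genes of sperm energy metabolism 1 rose and 3 fell. Slc2a3, a glucose transporter, read 381 and 223 CPM against 925 CPM (-1.62 ± 0.24, adjusted p = 2.72e-06). Cox6b2, the testis form of a cytochrome c oxidase subunit, fell by 0.87, and Pfkp, a phosphofructokinase, fell by 0.77. The knockout values of Slc2a3 lay apart from each other but both under wild type. Of 25 haploid transcription factors and coactivators, Fhl5, which encodes the CREM partner ACT, rose (129 and 171 against 72.0 CPM, 1.06 ± 0.27, adjusted p = 0.00636), and Mybl1 fell.

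The machinery of the m6A mark and of mRNA decay had few called members. Mettl14, the partner that lets Mettl3 bind RNA, read 11.0 and 8.2 CPM against 25.6 CPM and fell by 1.41 (SE 0.37, adjusted p = 0.00995). Mettl3, the catalytic subunit, read 4.07 and 3.38 against 3.36 CPM and was not called. Of 11 writer complex genes 1 fell and 0 rose, with a median of 0.03. None of 15 readers and erasers was called (2 lower at an unadjusted p under 0.05, 0 by DESeq2), and the median was 0.06. Of 19 deadenylase genes 1 fell, Cnot4, a ubiquitin ligase that associates with CCR4-NOT (71.5 and 64.3 against 122 CPM, -0.85 ± 0.26, adjusted p = 0.0306), and the list's median was -0.34. Edc4, a scaffold of the decapping complex, read 31.5 and 20.4 against 60.7 CPM (-1.23 ± 0.31, adjusted p = 0.00565), the 1 fall among 26 decapping and nonsense-mediated decay genes. Ttc37, the scaffold of the SKI complex that feeds RNA to the exosome, was the 1 rise among 18 exosome genes (54.6 and 52.4 against 24.9 CPM).

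Of 38 genes of haploid mRNA storage and translation control 1 rose and 1 fell. Pabpc6, a poly(A) binding protein gene, read 648 and 469 CPM against 1596 CPM (-1.51 ± 0.23, adjusted p = 3.61e-07), well below wild type in both libraries. Rpl10l, the germ line copy of an X-linked ribosomal protein gene, read 379.7 and 367 against 215 CPM (0.8 ± 0.25, adjusted p = 0.0391). Piwil1, the piRNA-binding protein of pachytene spermatocytes and round spermatids, was the 1 fall among 26 genes of the chromatoid body and piRNA pathway (40.7 and 23.3 against 69.2 CPM, -1.11 ± 0.3, adjusted p = 0.0123). Ddx4, an RNA helicase of the chromatoid body, read 979 and 673 against 1296 CPM (-0.65 ± 0.23, adjusted p = 0.0835). Large housekeeping lists had few calls. Of 78 cytosolic ribosomal protein genes 1 rose and 1 fell, with a median of -0.08. Of 76 mitochondrial ribosomal protein genes 0 were called (7 lower at an unadjusted p under 0.05, 0 by DESeq2), with a median of -0.05. Of 79 respiratory chain genes 2 fell, with a median of -0.14, and of 35 proteasome genes 1 fell, with a median of -0.26.

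Stress lists had few calls as well. Of 19 p53 targets 2 rose: Ccng1, which encodes cyclin G1, read 7.03 and 16.7 against 3.55 CPM, and Fas, a death receptor, had 16 and 37 counts in the knockouts and 0 in wild type, a level at least 12.8-fold higher against a floor of 3 counts. Of 15 interferon and nucleic acid sensor genes Ddx58, a sensor of viral RNA, rose (11.0 and 10.4 against 3.39 CPM) and Stat2, a transcription factor of the interferon response, fell (8.94 and 7.72 against 19.9 CPM). None of 18 ATF4 and unfolded protein response genes was called (1 higher and 1 lower at an unadjusted p under 0.05, 0 by DESeq2). Of 32 heat shock chaperone genes Hsp90b1, a chaperone of the endoplasmic reticulum, fell by 0.72 (953 and 910.2 against 1533 CPM), and Calr3, a testis calreticulin, rose by 0.78 (332 and 296 against 183 CPM). Among 19 genes of transposon silencing, Uhrf1, which guides maintenance of DNA methylation, fell (57.6 and 41.1 against 104 CPM), and Suv39h2, a testis-enriched histone H3 methyltransferase, rose (92.3 and 113 against 54.7 CPM).

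The largest single-gene changes belonged to no common list, and several came near to presence against absence. Enpp3, an ectonucleotidase (chr10:24772406-24842823), had 1 and 6 counts in the knockout libraries and 1124 counts, or 35.9 CPM, in wild type (-7.72 ± 0.53, adjusted p = 1.05e-23). Vnn1, a pantetheinase whose start lies 878 kb away (chr10:23894688-23905343), went the other way, with 269 and 437 counts against 4 (6.96 ± 0.68, adjusted p = 8.97e-15). Of the other 8 tested genes from 1 Mb before to 1 Mb after this pair, 1 was called lower and 0 higher. It was Med23, a Mediator subunit named after its values were seen (6.13 and 10.5 against 25.7 CPM). Nmi, an interferon-induced protein that binds Myc, read 15.6 and 10.3 against 0.128 CPM. Zmynd8, a chromatin reader of acetylated histones, read 30.1 and 31.2 against 0.767 CPM (5.31 ± 0.5, adjusted p = 1.71e-15). Gm19589, a long noncoding RNA gene named after its values were seen, read 159.6 and 167 against 0.639 CPM. Such differences were marked in both knockout libraries, and with 1 wild-type library they cannot be told apart from a difference between individual libraries or animals.

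Within the same limits on symbol and level, the other largest rises were Myo7a, Snapc1, Ddx19a, Gas5, Myo1e, Pvrl4, Adamtsl3, Arhgap30 and Gss. They ran from 2.56 to 4.19 on the log2 scale. Myo7a, an unconventional myosin, read 29.8 and 18.3 against 1.31 CPM. Gas5, a host transcript of small nucleolar RNAs that is known for rapid turnover when translated, read 49.1 and 28.0 against 3.8 CPM (3.34 ± 0.42, adjusted p = 1.97e-09). Gss, glutathione synthetase, read 25.3 and 27.7 against 4.51 CPM. The other largest falls within those limits were Cyp2c55, Rpap3, Ptchd3, Vav2, Chuk, Mrto4, Fcgr3, Poglut1, Pou6f1, Zfp69 and Zfp354b, from -3.82 to -2.27. Ptchd3, a patched-domain protein of male germ cells, read 19.4 and 22.9 against 173 CPM (-3.03 ± 0.27, adjusted p = 1.84e-17). Vav2, an exchange factor for small GTPases, read 26.0 and 19 against 166 CPM, and Chuk, a kinase of the NF-kappaB pathway, read 7.3 and 7.68 against 46.5 CPM. The knockout libraries differed from each other by over 2-fold in Zfp354b (5.02 and 12.4 against 42.1 CPM) and in Arhgap30 (1.13 apart on log2(CPM + 0.5)), both still on 1 side of wild type.

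Called genes near Ythdf2 were mostly lower in the knockout. Within 10 Mb of it on chromosome 4, 20 of 268 tested genes were called lower (7.46%) and 2 higher (0.746%), against 24 lower (3.33%) and 16 higher (2.22%) of the other 721 genes of the chromosome. The median was -0.04 near the gene and 0.1 elsewhere on the chromosome. The called genes nearby, named after their values were seen apart from Mrto4, included Mrto4, a ribosome assembly factor (14.9 and 11.9 against 80.9 CPM), and Clic4, an intracellular chloride channel (12.7 and 10.5 against 45.5 CPM). Spen, a transcriptional repressor, rose there (86.6 and 113 against 45.5 CPM). Whether these libraries carry other differences in that region was not tested.

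Level and transcript class also went with the change. In the lowest of 5 equal classes of mean level the fitted median change was 0.62 (0.19 and 0.27 in the knockout libraries on log2(CPM + 0.5)), with 4 genes called higher and 5 lower of 3207. In the highest class it was -0.11, with 94 higher and 169 lower of 3206. Of 560 long intergenic noncoding RNAs 25 were called higher (4.46%) and 7 lower (1.25%), with a median of 0.31, against 2.1% and 2.82% of 14512 protein-coding genes. Counts of GGACT, the core of the commonest m6A site, did not order the change. Among 7366 autosomal protein-coding genes of mean log2 CPM 3 or more, the median was -0.07 for transcripts with 0 copies, -0.15 for those with 5 to 6 and -0.07 for those with 7 or more. Called rises were 2.66%, 1.37% and 2.63% of these classes, and called falls 3.42%, 6.54% and 4.6%.

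The overlap with calls in stem cells was near the background share. In Ythdf2-/- stem cells 228 of 11951 genes were called against wild type (1.91%, edgeR; 11 by DESeq2, and 54 to 123 when 1 library was left out), and in Ythdf2-/- oocytes past the germinal vesicle stage 0 of 13910 were called against heterozygotes (0.0%; 782 at an unadjusted p under 0.05 and 76 by DESeq2). Of the 476 spermatid calls tested in stem cells 7 were called there (1.47%), beside 1.71% of the 10241 genes tested in both. These 7 are 4.0% of the 175 stem cell calls tested in spermatids, beside 4.65% of the 10241 called in spermatids. Of the 7, 4 had the same direction. They were Lmo7, Senp2, Eif2s2 and the antisense transcript 4933433G19Rik, which read 13.3 and 17.5 against 2.49 CPM in spermatids and 14.7 ± 0.643 against 1.35 ± 0.644 CPM (SD, n = 2 each) in stem cells. The tables were normalized separately, so no test was made across them. X-linked genes had a median change of -0.03 in stem cells and -0.02 in oocytes. In single knockout libraries the X median minus the autosomal median was -0.01 and -0.04 in stem cells, 0.03 and 0.07 in oocytes, and 0.74 and 0.49 in spermatids. Both spermatid values share the single wild-type library. The difference between cell types was not tested.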

How the data were processed

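RNA was sequenced from 2 Ythdf2-/- and 1 Ythdf2+/+ round spermatid samples. The deposited table holds counts per gene and library made by the authors. The tools listed, per the submitters' processing notes, are STAR 2.4.2a, CASAVA 1.8.2, DESeq2 and cutadapt, with the mm10 build. The sources used here name no counter, annotation or strand setting. Without strand, reads from overlapping antisense genes cannot be told apart (63 of 177 named genes overlap a gene on the opposite strand). Total counts ran from 18843689 to 32759740 per library, where 3 counts equal 0.0959 to 0.159 CPM; standard errors and that floor cover counting error and the spread of the knockout pair alone.

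In R 4.3.3, edgeR 4.0.16 (TMM scaling, filterByExpr by group, robust quasi-likelihood F test) was fitted to the 3 libraries, keeping 16031 of 17715 genes, with Benjamini-Hochberg adjustment over them. The stem cell table (12 libraries in 1 fit) and the post-GV oocyte table (5 libraries) were fitted apart in the same way. The fitting was tested on simulated data. Alternatives were RLE and total-count scaling, no filter, a filter of 5 CPM in at least 1 library, DESeq2 1.42.0, limma 3.58.1 (voom) and each knockout library alone; counts of X-linked and meiotic division calls under these settings, and classes of mean level, were added after the data were seen. Named genes were Ythdf2, Ythdf1, Ythdf3, Mettl3, the protamine and transition protein genes, the 12 largest called rises and falls of mean log2 CPM 3 or more (no predicted, clone, pseudogene, Y-linked or mitochondrial symbols), and the 4 members of each of 38 gene lists with the smallest p; examples were picked from these. The members and lists were chosen with earlier results of these data known. Positions came from GENCODE M21 (GRCm38), where 99.0% of tested symbols were found, with RefSeq synonyms. The DESeq2-derived columns in the table were not used. The values of 1 called gene are not reported here.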

Additional observations from a re-analysis of the deposited data

Results flagged for a closer look

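In 3 genes called in both spermatids and stem cells, each knockout library of one cell type lay above its controls and each of the other below; the difference between the cell types was not tested. Rgcc, a regulator of the cell cycle, was 14.6 and 15.8 against 33.8 CPM in spermatids, and changed by 0.84 in stem cells (77.7 ± 14.4 against 43.0 ± 4.75 CPM, SD, n = 2 each). Plekha2, a phosphoinositide-binding protein, was 4.86 and 2.47 against 0.16 CPM in spermatids, and changed by -1.38 in stem cells (9.18 ± 0.184 against 24.2 ± 1.44 CPM). Psmd7, a proteasome subunit, was 35.6 and 25.8 against 59.7 CPM in spermatids, and changed by 0.3 in stem cells (382 ± 1.07 against 311 ± 10.5 CPM). The spermatid call of Psmd7 was lost with DESeq2, with the filter of 5 CPM and with total-count scaling.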

How the results depend on the processing

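The total of 785 called genes became 341 with a filter of 5 CPM, which tested 10046 genes, and 399 with DESeq2. Calls higher in the knockout became 577 with total-count scaling, 182 with the 5 CPM filter and 201 with DESeq2, against 361, and calls lower became 159 with the filter and 198 with DESeq2, against 424. X-linked genes called higher became 44 with the filter and 45 with DESeq2, against 78, and X-linked genes called lower became 1 with the filter, DESeq2 and limma-voom, against 2. Meiotic division genes called lower became 3 with the filter and 5 with DESeq2, against 8. The cause of these shifts was not tested. The median of X-linked minus autosomal genes was 0.77 and ran from 0.58 to 0.96 when either knockout library was left out and from 0.72 to 0.86 over the other settings; that of meiotic division genes was -0.62 and ran from -1.01 to -0.45 and from -0.75 to -0.53. Genes at least 2-fold above wild type in both knockout libraries numbered 1161 with a pseudocount of 0.1 CPM and 204 with 2 CPM, against 584, and from 1312 to 1498 with 1 knockout library; genes 2-fold below numbered 525 and 183, against 346, and from 775 to 1048. Of 78 named called genes, 10 lost the call with RLE scaling, 7 with total-count scaling, 2 without a filter and 2 with limma-voom, and of the 77 tested, 24 with the 5 CPM filter and 23 with DESeq2. None of the 78 changed direction under these settings. With 1 knockout library none could, since in every called gene both knockout libraries lay on the same side of wild type. The wild-type library could not be left out, and the 5 CPM filter left no Leydig cell gene to give that list a median.

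No paired analysis was possible because a single wild-type spermatid library shares no pair of replicate numbers with the knockouts. In stem cells calls numbered 228, 11 with DESeq2 and 54 to 123 when 1 library was left out; in oocytes they numbered 0, 76 with DESeq2 and 0 to 1 without 1 library. With the replicate number as a block they were 242 in stem cells and 3 in oocytes, where same-numbered libraries gave residual correlations of 0.0334 in stem cells and of 0.425 and -0.602 in oocytes, so the numbers were not taken as pairs.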
